A study of Mus musculus with 12 samples.

Results

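The 10 genes described here encode the ID, HES and HEY repressors of the helix-loop-helix family: Id1, Id2, Id3 and Id4, Hes1, Hes5 and Hes6, and Hey1, Hey2 and Heyl. They were chosen by symbol, as the probe sets that the platform annotation gives exactly 1 symbol. Each of the 10 had 1 such probe set, among 19934 genes with 21780 probe sets. The 12 mouse cell cultures of the study were hybridised to Affymetrix arrays, 1 array each, and levels are log2 RMA values, on which a difference of 1 is a doubling. All 12 cultures, the stem cell cultures included, came from mice of the Arf-/- genotype with a tv-a transgene, whose product lets an avian retrovirus enter the cell, and none was treated. The tumour cultures were grown adherently. Of these, 9 were glioblastoma cultures from tumours induced in adult brain by DF-1 chicken cells releasing RCAS-PDGFB-HA, which brings the PDGFB growth factor gene into tv-a cells. The 3 mGC1_GFAP cultures came from the G/tv-a line, the 3 mGC2_NES cultures from the N/tv-a line and the 3 mGC3_CNP cultures from the C/tv-a line. In these lines the promoters of Gfap, Nes and Cnp, genes of astrocytes and stem cells, of progenitors and of oligodendrocyte lineage cells, decide which cells can be infected. The other 3 cultures were neural stem cells (NSC), 1 from each line, taken from the adult subventricular zone. The question was whether glioblastoma cells differ with the cell they arose from. Origin and mouse line cannot be told apart in the tumour cultures, and the labels name the tumour cultures biological replicates without saying that each came from its own animal, so that p-values rest on the spread among these cultures alone.

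ID proteins have a helix-loop-helix domain without the basic stretch that touches DNA. They pair with E proteins and keep these from DNA, which holds back the differentiation factors that need an E protein partner. HES and HEY proteins do bind DNA and silence their targets with co-repressors of the TLE (Groucho) family. Id genes are classical targets of BMP signalling through SMAD proteins, and Hes1, Hes5 and the Hey genes of Notch signalling through RBPJ. In the adult brain both groups are known for keeping neural stem cells undifferentiated, and in the oligodendrocyte lineage Id2, Id4 and Hes5 are known to hold back maturation.

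Promoter windows in RefSeq (build GRCm38.p6, 250 bases before to 50 bases after a start site) were matched for 6 of the 10 genes: Id2, Id3, Id4, Hes5, Hes6 (with 2 windows) and Hey2. Shown are the 250 bases before the start for Hes5 and Hey2, the Notch target genes among them that moved in opposite directions in the tumour cultures, and for Id2 and Id4, which also moved in opposite directions. Sequences run 5′ to 3′ along the gene's strand. Capitals mark GTGGGAA, the core of the RBPJ binding sequence, on either strand in Hes5 and Hey2, and GGCGCC, a palindrome of BMP-responsive enhancers, in Id2 and Id4. The Hes5 window lies at chr4:154960673-154960922, plus strand, and the Hey2 window at chr10:30842784-30843033, minus strand. The Id2 window lies at chr12:25096093-25096342, minus strand, and the Id4 window at chr13:48260866-48261115, plus strand.
Hes5: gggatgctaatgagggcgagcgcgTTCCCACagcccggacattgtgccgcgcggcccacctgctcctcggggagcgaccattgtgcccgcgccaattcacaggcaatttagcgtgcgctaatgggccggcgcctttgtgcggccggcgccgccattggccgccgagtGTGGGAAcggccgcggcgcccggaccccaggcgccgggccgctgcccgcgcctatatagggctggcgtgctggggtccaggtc
Hey2: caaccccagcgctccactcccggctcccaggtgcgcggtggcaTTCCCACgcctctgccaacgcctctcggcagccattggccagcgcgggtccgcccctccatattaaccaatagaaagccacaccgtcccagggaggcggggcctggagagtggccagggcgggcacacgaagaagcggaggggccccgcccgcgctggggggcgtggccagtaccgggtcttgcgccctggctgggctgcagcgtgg
Id2: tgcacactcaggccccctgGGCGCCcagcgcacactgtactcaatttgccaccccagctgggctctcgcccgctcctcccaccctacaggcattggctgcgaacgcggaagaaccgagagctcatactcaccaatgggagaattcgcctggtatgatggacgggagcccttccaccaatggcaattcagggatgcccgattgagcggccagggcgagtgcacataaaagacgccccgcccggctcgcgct
Id4: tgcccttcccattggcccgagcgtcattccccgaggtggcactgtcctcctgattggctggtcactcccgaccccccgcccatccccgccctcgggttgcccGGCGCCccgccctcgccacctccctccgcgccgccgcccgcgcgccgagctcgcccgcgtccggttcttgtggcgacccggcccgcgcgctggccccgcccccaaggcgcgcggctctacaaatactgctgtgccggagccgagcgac
A second match in Hey2 spans the start site itself (chr10:30842778-30842797, minus strand).
Hey2 start: gggctgcagcGTGGGAAaga
GTGGGAA thus occurred 2 times in the Hes5 window, beginning 226 and 83 bases before the start, and 2 times in the Hey2 window, beginning 207 and 4 bases before it. Of all 32851 windows in the table, 6.38% held it at least once and 0.256% at least 2 times. The windows of Id2, Id3, Id4 and Hes6 held no GTGGGAA. The palindrome GGCGCC occurred once in the Id2 window, 231 bases before the start, and once in the Id4 window, 148 bases before it. It occurred 4 times in the Hes5 window without overlapping GTGGGAA, once in the Hey2 window after the start, and not in those of Id3 and Hes6. Of all windows 11.9% held GGCGCC. These matches describe letters in the windows, and no binding was measured.

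Across the series the array medians lay between 7.60 and 7.66. As a gauge of absent transcripts, Odf1, Prm2, Tnp1 and Tnp2, which belong to spermatids, read 5.60 to 7.42. A called difference whose lower group mean was at or below 7.42 is given as a lower bound ("at least"). Such bounds hold to within the error of the estimate, and Hey2 in mGC1_GFAP is excepted. The NSC culture of the G/tv-a line stood apart by having both Xist at 11.86 and a mean of 3 Y-linked genes at 8.39. The mGC2_NES replicate 2 culture had an intermediate Xist value of 9.27 with Y-linked genes at 4.89. Counts are therefore also given without both. In NSC cultures the stem cell marker genes Nes (12.24), Sox2 (12.51) and Egfr (11.76) were high. The mean of 6 stem cell markers was 11.33 to 11.51 in NSC and 9.26 to 9.80 in tumour cultures, where Egfr (-5.43), Nes (-2.07), Nr2e1 (-1.76) and Prom1 (-1.65) were called lower. Sox2 and Fabp7 did not pass, at 12.34 and 13.98 in tumour cultures and 12.51 and 14.10 in NSC. The mean of 5 oligodendrocyte precursor markers, Pdgfra and Sox10 among them, was 8.29 to 8.66 in NSC and 12.65 to 12.82 in tumour cultures. The mean of 7 astrocyte markers was 10.18 to 10.55 in NSC and 7.69 to 8.29 in tumour cultures, where 4 of the 7, Gfap, Aqp4, Aldh1l1 and Gja1, had means at or below 7.42. Of the 7, 5 were called lower and 1, Aldoc, higher (0.67 ± 0.15), while Slc1a2 did not pass (9.30 in NSC, 9.05 in tumour cultures). The means of all 3 lists moved together with every tumour against NSC difference below, and the part of these lists in those differences was not tested. Endothelial cells are known for Hey1, Hey2 and Id1. The mean of 8 endothelial markers read 6.48 to 6.75 on all 12 arrays, and 7 of the 8 had means at or below 7.42 in tumour and in NSC cultures, Pecam1, Cdh5 and Tek among them and Flt1 excepted. The mean of 8 pericyte and smooth muscle markers read 6.46 to 6.80 in tumour and 6.86 to 7.01 in NSC cultures, with Pdgfrb, Rgs5 and Abcc9 below 7.42 in both and Acta2 at 9.93 in NSC. The mean of 7 microglia markers read 6.38 to 6.55 in tumour and 6.46 to 6.61 in NSC cultures, and that of 6 neuron markers 6.86 to 7.98 and 7.16 to 8.06.

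Against NSC, tumour cultures had less Id1, Id3, Id4, Hes1, Hes5 and Hey1 and more Id2 and Hey2. By limma fitted on all 12 arrays with Benjamini-Hochberg adjustment over 21780 probe sets, 8 of the 10 genes were called at an adjusted p under 0.05, 2 higher and 6 lower, while 36.7% of all probe sets were called, 17.6% higher and 19.2% lower. The median difference of the 10 was -0.99, against 0.01 over all probe sets. Of the ID genes 1 rose and 3 fell, of the HES genes 2 fell and 1 did not pass, and of the HEY genes 1 rose, 1 fell and 1 did not pass. Tumour and NSC arrays did not overlap for 5 of the 10, namely Id1, Id2, Id4, Hes5 and Hey1, as for 27.3% of all probe sets. These cultures were measured in bulk, so that fewer cells with a transcript and less of it per cell cannot be told apart. Without both cultures of discordant sex-linked transcripts 8 of 10 were still called, as they were with the mouse line as a block.

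**Figure D1:**
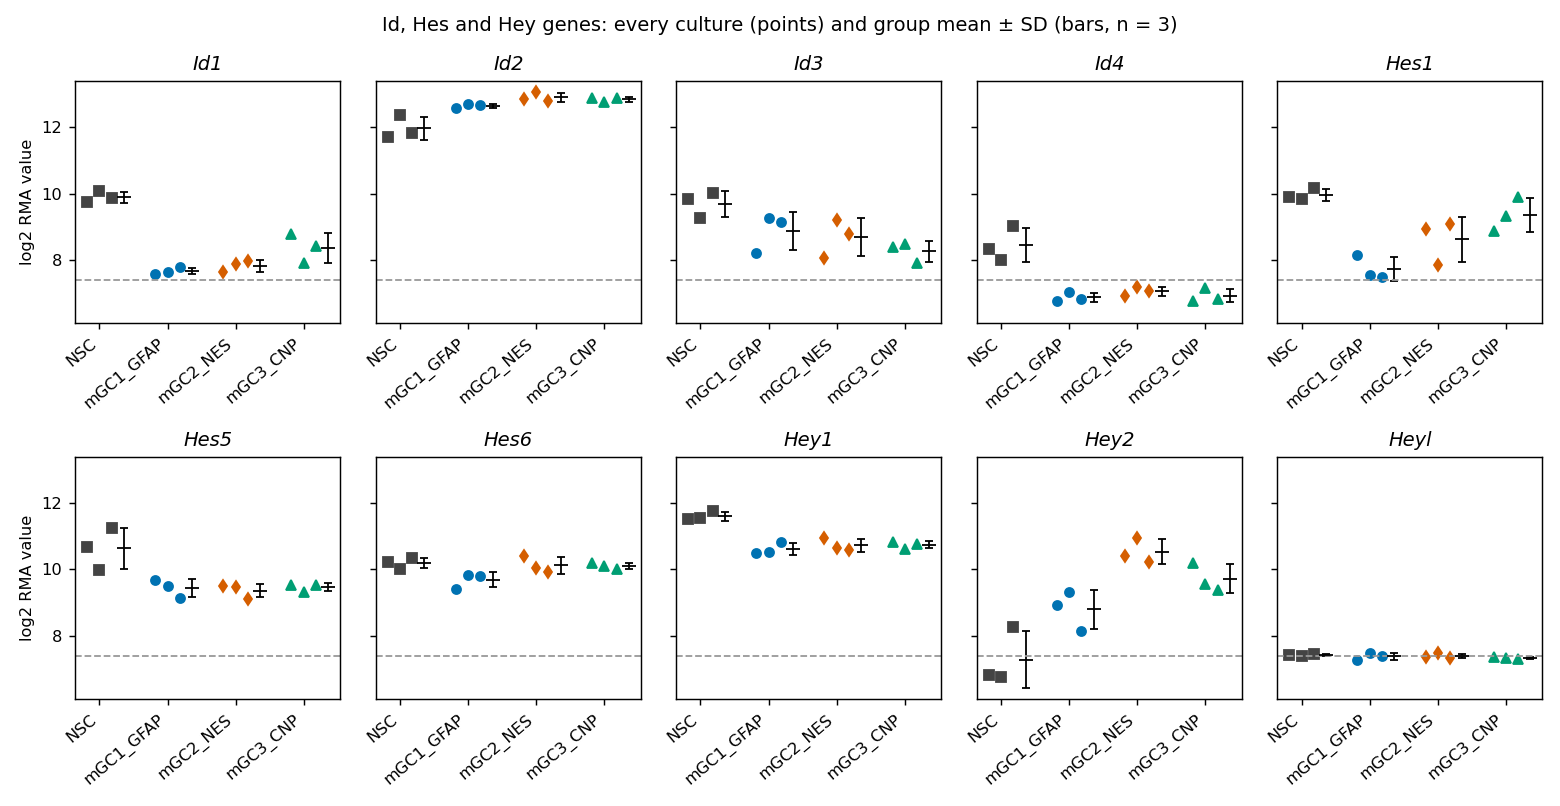
Log2 RMA value (vertical axis) of each of the 10 genes in the 3 NSC and the 3 cultures of each tumour group (points), with the group mean ± SD beside them; the dashed line marks 7.42, the top of the range of spermatid genes. Id1, Id4, Hes5 and Hey1 sit higher and Id2 lower in every NSC culture than in any tumour culture, Hey2 is highest in mGC2_NES, and Heyl lies on the dashed line throughout.

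Among the BMP target genes, Id1 (probe set 10477169) had the lowest adjusted p of the 10. It read 9.75, 10.07 and 9.86 in the NSC cultures of the C/tv-a, N/tv-a and G/tv-a lines. In tumour cultures it read 7.60, 7.65 and 7.79 in mGC1_GFAP, 7.65, 7.89 and 7.98 in mGC2_NES and 8.80, 7.91 and 8.42 in mGC3_CNP. Every tumour value lay below every NSC value, with mGC3_CNP nearest to them. The difference was -1.93 ± 0.15 (SE, limma adjusted p = 1.55e-06), or 3.81-fold lower, from 9.89 ± 0.17 (SD, n = 3) to 7.96 ± 0.40 (SD, n = 9).

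Id3 (probe set 10509163), which shares BMP control with Id1 in many tissues, read 9.83, 9.26 and 10.01 in the C/tv-a, N/tv-a and G/tv-a NSC cultures. Tumour cultures ranged from 7.91 over a median of 8.50 to 9.28. The groups overlapped, because mGC1_GFAP replicate 2 at 9.28 exceeded the N/tv-a NSC culture. The difference was -1.09 ± 0.27 (limma adjusted p = 0.00751), or 2.12-fold lower in tumour cultures.

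Id4 (probe set 10404975), an ID protein linked to stem cell quiescence and to the block of oligodendrocyte differentiation, read 8.33, 8.02 and 9.02 in the C/tv-a, N/tv-a and G/tv-a NSC cultures. All 9 tumour cultures read 6.79 to 7.19, at or below the 7.42 of absent transcripts, so presence of Id4 in tumour cultures was not shown. The fitted difference was -1.49 ± 0.17 (limma adjusted p = 2.94e-05, 95% interval -1.86 to -1.12), with the tumour side at the level of absent transcripts, and -1.21 without the G/tv-a NSC culture.

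Id2 (probe set 10399691) went the other way. It read 11.72, 12.36 and 11.83 in the C/tv-a, N/tv-a and G/tv-a NSC cultures and 12.57 to 13.05 in the 9 tumour cultures, with a median of 12.78. No tumour culture lay below an NSC culture, and the N/tv-a NSC culture came nearest. The rise was 0.82 ± 0.12 (limma adjusted p = 0.000148), or 1.77-fold, on top of an already high NSC value.

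Of the HES genes, Hes5 (probe set 10510950), the Notch target most tied to neural stem cells, read 10.67, 9.998 and 11.24 in the C/tv-a, N/tv-a and G/tv-a NSC cultures. Tumour cultures lay in a narrow band from 9.13 over a median of 9.50 to 9.67, below all 3 NSC cultures. The difference was -1.21 ± 0.21 (limma adjusted p = 0.000629), or 2.32-fold lower. Its promoter window is the one above with both GTGGGAA matches before the start.

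Hes1 (probe set 10434925), a Notch target whose protein also represses its own gene, read 9.90, 9.83 and 10.18 in the C/tv-a, N/tv-a and G/tv-a NSC cultures. It read 8.15, 7.56 and 7.50 in mGC1_GFAP, 8.94, 7.85 and 9.09 in mGC2_NES and 8.87, 9.33 and 9.89 in mGC3_CNP. The mGC1_GFAP cultures were the furthest below NSC, and mGC3_CNP replicate 3 lay inside the NSC range. Over all tumour cultures the difference was -1.39 ± 0.27 (limma adjusted p = 0.00146), or 2.62-fold lower.

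Hes6 (probe set 10356593) encodes a HES relative that counteracts Hes1 and favours differentiation. It read 10.24, 10.02 and 10.34 in the C/tv-a, N/tv-a and G/tv-a NSC cultures and 9.43 to 10.41 in tumour cultures, so that the ranges overlapped. Its difference of -0.23 ± 0.12 did not pass (limma adjusted p = 0.158, 95% interval -0.48 to 0.03).

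Of the HEY genes, Hey1 (probe set 10497203) read 11.50, 11.53 and 11.74 in the C/tv-a, N/tv-a and G/tv-a NSC cultures and 10.51 to 10.94 in tumour cultures, with no overlap. The difference was -0.90 ± 0.10 (limma adjusted p = 2.11e-05), or 1.87-fold lower.

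Hey2 (probe set 10368556), known from heart and vessel development and from progenitors, showed the opposite and the largest difference of the 10. It read 6.84 and 6.77 in the NSC cultures of the C/tv-a and N/tv-a lines, below the 7.42 of absent transcripts, and 8.27 in that of the G/tv-a line. It read 8.92, 9.33 and 8.15 in mGC1_GFAP, 10.40, 10.95 and 10.24 in mGC2_NES and 10.20, 9.57 and 9.37 in mGC3_CNP. All mGC2_NES and mGC3_CNP cultures lay above all NSC cultures, while mGC1_GFAP replicate 3 lay below the G/tv-a NSC culture. The rise was at least 2.39 ± 0.34 (limma adjusted p = 0.000152), from 7.29 ± 0.85 (SD, n = 3) to 9.68 ± 0.85 (SD, n = 9).

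Heyl (probe set 10507840), the third HEY gene, gave no sign of a transcript. It read 7.28 to 7.49 in tumour and 7.39 to 7.45 in NSC cultures, at or below 7.42 on 8 of 12 arrays. Its difference of -0.04 ± 0.06 (limma adjusted p = 0.606) therefore cannot tell equal levels from absence.

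Each tumour group was also set against the same 3 NSC arrays, so that these comparisons share their controls. In mGC1_GFAP 8 of 10 genes were called, 2 higher and 6 lower, against 29.3% of all probe sets (13.9% higher, 15.3% lower). In mGC2_NES 8 were called, 2 higher and 6 lower, against 34.9% (16.6% higher, 18.2% lower). In mGC3_CNP 7 were called, 2 higher and 5 lower, against 30.3% (14.9% higher, 15.5% lower). Arrays of the group and of NSC did not overlap for 7, 8 and 8 genes, against 43.3%, 46% and 42.4% of all probe sets. The 8 of mGC3_CNP include Heyl (-0.08, limma adjusted p = 0.432), which gave no sign of a transcript. Id1, Id2, Id4, Hes5, Hey1 and Hey2 were called in all 3, Id2 and Hey2 as higher and the others as lower. Hes5 gave nearly the same value in each, with -1.20 ± 0.25, -1.27 ± 0.25 and -1.17 ± 0.25 in mGC1_GFAP, mGC2_NES and mGC3_CNP (limma adjusted p = 0.00382, 0.00207 and 0.00403). Hey1 likewise gave -0.97 ± 0.12, -0.87 ± 0.12 and -0.86 ± 0.12.

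The remaining genes did not pass in every group, and the differences between groups themselves are tested below. Hes1 passed with -2.23 ± 0.33 in mGC1_GFAP (limma adjusted p = 0.000333) and -1.34 ± 0.33 in mGC2_NES (limma adjusted p = 0.00739), and did not pass with -0.60 ± 0.33 in mGC3_CNP (limma adjusted p = 0.207, 95% interval -1.32 to 0.12). Id3 gave -0.82 ± 0.33 in mGC1_GFAP (limma adjusted p = 0.0889), -1.01 ± 0.33 in mGC2_NES (limma adjusted p = 0.0337) and -1.43 ± 0.33 in mGC3_CNP (limma adjusted p = 0.00622). Hes6 passed in mGC1_GFAP at -0.51 ± 0.14 (limma adjusted p = 0.0178), against -0.07 ± 0.14 in mGC2_NES and -0.10 ± 0.14 in mGC3_CNP, which did not pass. Hey2 rose by 1.51 ± 0.41 against the NSC mean in mGC1_GFAP (limma adjusted p = 0.0160), whose cultures overlapped NSC. This value is not given as a lower bound. The G/tv-a NSC culture, of the same line, read 8.27, above the level of absent transcripts. The mGC1_GFAP mean lay 0.53 above that culture. The rise of Hey2 was at least 3.24 ± 0.41 in mGC2_NES (limma adjusted p = 8.89e-05) and 2.42 ± 0.41 in mGC3_CNP (limma adjusted p = 0.000848).

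Some of these calls were lost when any 1 of several cultures was left out. In mGC1_GFAP, Hey2 no longer passed without the C/tv-a NSC (1.28), the N/tv-a NSC (1.25), mGC1_GFAP replicate 1 (1.45) or mGC1_GFAP replicate 2 (1.25), and Hes6 no longer passed without the C/tv-a NSC (-0.49), the G/tv-a NSC (-0.44) or mGC1_GFAP replicate 1 (-0.38). In mGC2_NES, Id3 no longer passed without the C/tv-a NSC (-0.945), the G/tv-a NSC (-0.85), mGC2_NES replicate 1 (-0.71) or mGC2_NES replicate 3 (-1.06). Without both cultures of discordant sex-linked transcripts the counts were 7, 6 and 7 of 10, as Hes6 in mGC1_GFAP (-0.44) and Id3 (-1.11) and Hes1 (-0.85) in mGC2_NES no longer passed.

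**Figure D2:**
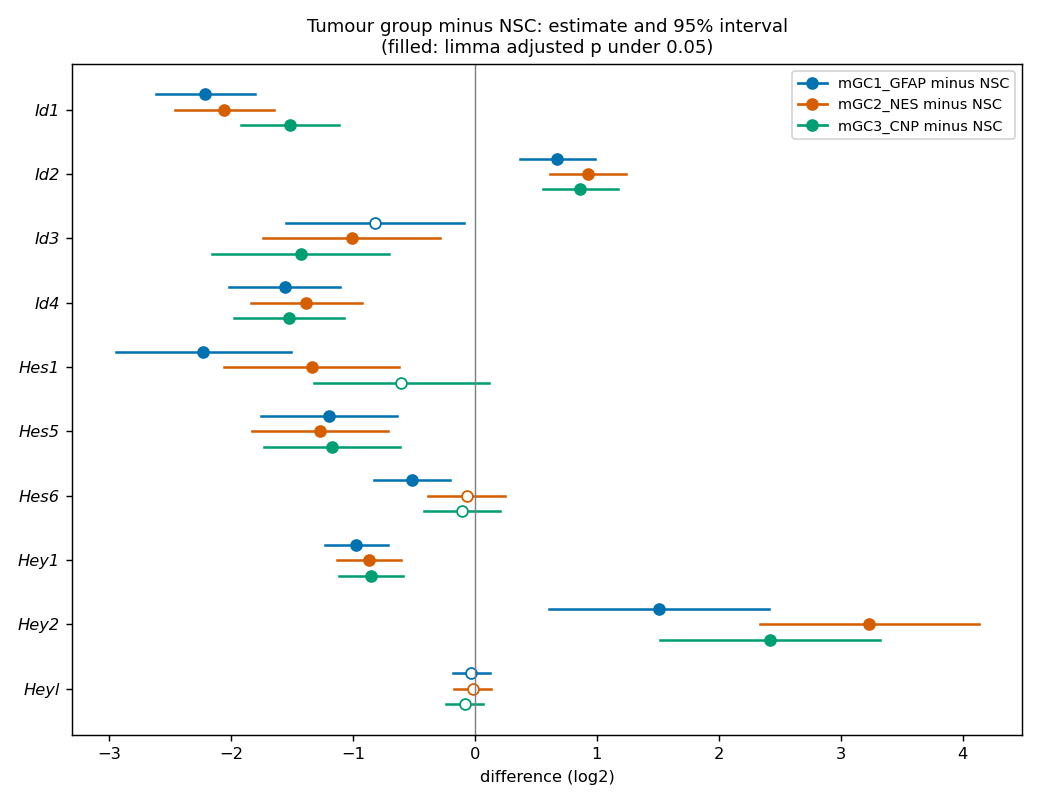
Difference of each tumour group from NSC on the log2 scale (horizontal axis) for the 10 genes, as the limma estimate with its 95% interval; filled points had an adjusted p under 0.05. Id1, Id4, Hes5 and Hey1 lie left of 0 and Id2 and Hey2 right of 0 in all 3 groups, while the Hes1 estimates run from -2.23 in mGC1_GFAP to -0.60 in mGC3_CNP and those of Heyl stay at 0.

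Whether these genes differ among the tumour groups was tested on the 9 tumour arrays. In these groups origin and mouse line coincide, and sex-linked readings differed too. By the moderated F test in limma, 1 of the 10, Hey2, differed among the groups (adjusted p = 0.0423), against 4.05% of all probe sets. That call was lost in 5 of the 9 fits that left out 1 tumour array, those without mGC1_GFAP replicate 1 or 3, mGC2_NES replicate 1 or 3 or mGC3_CNP replicate 3, and with an intensity trend and robust prior. Between mGC1_GFAP and mGC2_NES 1 of 10 was called, again Hey2, against 6.13% of probe sets. The difference was -1.73 ± 0.32 (limma adjusted p = 0.0172), or 3.31-fold lower in mGC1_GFAP, at 8.80 ± 0.60 against 10.53 ± 0.37 (SD, n = 3 each), and the 3 values of each group did not overlap. Between these groups 3 of the 10 genes, Id2, Hes6 and Hey2, did not overlap (26.5% of all probe sets), and 4, these and Hes1, had an unadjusted p under 0.05 (20.6%). For Id2 the difference was -0.25 ± 0.08 (limma adjusted p = 0.121), for Hes6 -0.44 ± 0.14 (limma adjusted p = 0.113) and for Hes1 -0.89 ± 0.36 (limma adjusted p = 0.190). The mGC3_CNP mean of 9.71 ± 0.43 (SD, n = 3) lay between them, apart by 0.91 ± 0.32 from mGC1_GFAP (limma adjusted p = 0.267) and by 0.81 ± 0.32 from mGC2_NES (limma adjusted p = 0.321), without overlap on either side. The order of Hey2 levels was thus mGC2_NES, mGC3_CNP, mGC1_GFAP and NSC, where only mGC2_NES and mGC1_GFAP differed by the test among tumour groups. In the same pair 4 cell type markers were called. The stem cell markers Nes (1.01 ± 0.19) and Nr2e1 (0.68 ± 0.12) and the neuron marker Syt1 (1.24 ± 0.30) were higher in mGC1_GFAP, the precursor marker Erbb3 (-0.54 ± 0.11) was lower, and their part in the Hey2 difference was not tested. The Hey2 call between these groups was lost without mGC1_GFAP replicate 1 (-1.79, adjusted p = 0.0532) or mGC2_NES replicate 2 (-1.52, adjusted p = 0.0608).

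No other gene of the 10 was called between tumour groups. Between mGC1_GFAP and mGC3_CNP 0 of 10 passed in limma (0.487% of all probe sets did), and 4 of 10 had an unadjusted p under 0.05, as did 12.9% of all probe sets. These were Id1, Hes1, Hes6 and Hey2. Hes1 had the widest gap, at 7.74 ± 0.36 in mGC1_GFAP and 9.36 ± 0.51 in mGC3_CNP (SD, n = 3 each). Its difference was -1.62 ± 0.36 with a 95% interval from -2.43 to -0.82, and the cultures of both groups did not overlap, yet the adjusted p was 0.102 in limma. For Id1 the means were 7.68 ± 0.10 and 8.38 ± 0.45 (SD, n = 3 each), also without overlap, and the difference was -0.69 ± 0.19 (limma adjusted p = 0.168). Cultures of these groups did not overlap for 5 of the 10 genes (Id1, Id2, Hes1, Hes6 and Hey2), against 19.4% of all probe sets.

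Between mGC2_NES and mGC3_CNP 0 of 10 passed in limma (0.459% of all probe sets did), and Id1 and Hey2 had an unadjusted p under 0.05 (13.3% of all probe sets). Only for Hey2 did the cultures of these groups not overlap, as for 18.2% of all probe sets. For Hes5 and Hey1 the intervals between tumour groups were narrower than those of Id3, though not the narrowest of the 10 genes. The 95% interval of the Hes5 difference ran from -0.26 to 0.41 between mGC1_GFAP and mGC2_NES, from -0.36 to 0.31 between mGC1_GFAP and mGC3_CNP and from -0.43 to 0.23 between mGC2_NES and mGC3_CNP. For Hey1 the same intervals ran from -0.38 to 0.17, from -0.39 to 0.16 and from -0.29 to 0.26. For Id3 they were wide, for example from -0.15 to 1.36 between mGC1_GFAP and mGC3_CNP, which reaches past a doubling.

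**Figure D3:**
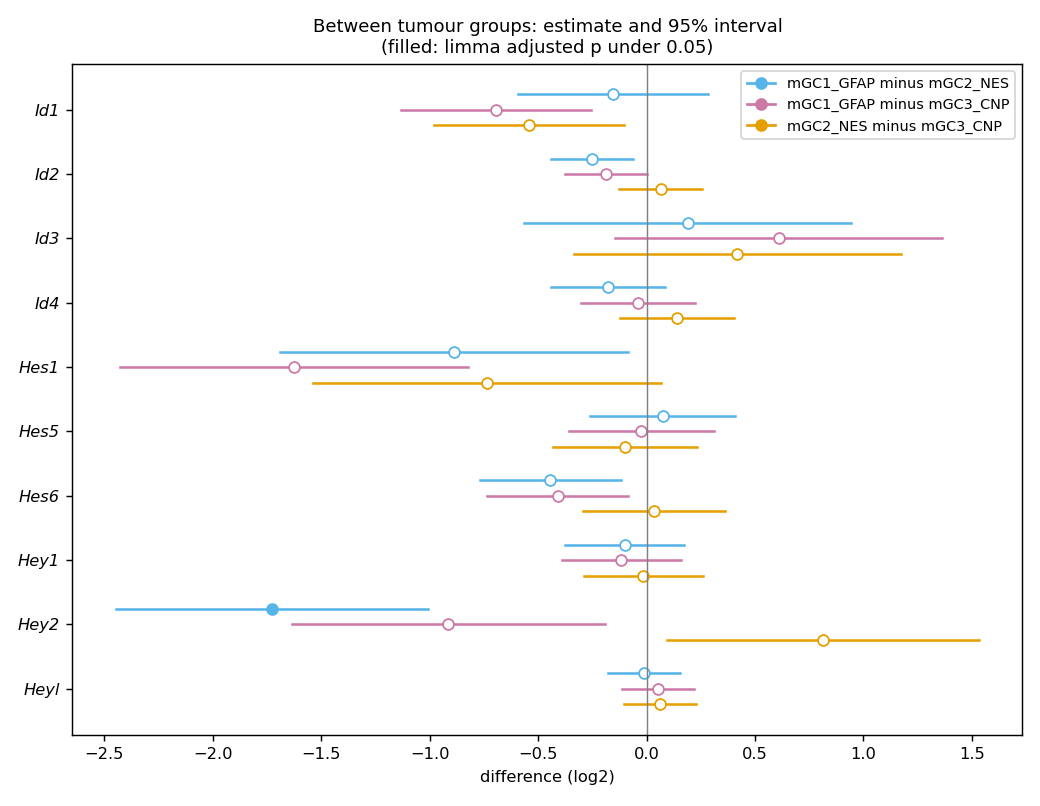
Differences between pairs of tumour groups on the log2 scale (horizontal axis) for the 10 genes, with 95% intervals; filled points had a limma adjusted p under 0.05. The only filled point is Hey2 in mGC1_GFAP against mGC2_NES at -1.73, and the Hes1 interval of mGC1_GFAP against mGC3_CNP runs from -2.43 to -0.82 without passing after adjustment.

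The NSC cultures, with 1 per line and hence no test, also differed among themselves. Hes5 spanned 1.24 among the 3 NSC cultures against 0.54 among the 9 tumour cultures, and Id4 1.00 against 0.40. Id2 also had the wider range among NSC cultures. For Id1, Id3, Hes1, Hes6, Hey1, Hey2 and Heyl the range was wider among tumour cultures, so the pattern of Hes5 and Id4 was not general. Hes5 and Id4 were highest in the G/tv-a and lowest in the N/tv-a NSC culture. The tumour cultures of Hes5 read 9.13 to 9.67 over all lines. The tumour range of Id4 lies wholly below the 7.42 of absent transcripts and says nothing of how alike its levels were. Among the 8 called genes, the N/tv-a NSC culture was nearest to the tumour mean for 5 (Id2, Id3, Id4, Hes1 and Hes5), the C/tv-a culture for Id1 and Hey1, and the G/tv-a culture for Hey2. This was not counted over all probe sets, so whether it is particular to these genes is unknown. Set against the NSC culture of the same line, Hey2 was higher by 3.47 to 4.18 in the 3 mGC2_NES cultures and by 2.53 to 3.36 in the 3 mGC3_CNP cultures. In the mGC1_GFAP cultures it was -0.12 to 1.06 from theirs, with 2 of 3 above. The G/tv-a line thus had the highest Hey2 among NSC cultures and the lowest mean among tumour groups. Its NSC side is the 1 culture that had both Xist and Y-linked transcripts.

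**Figure D4:**
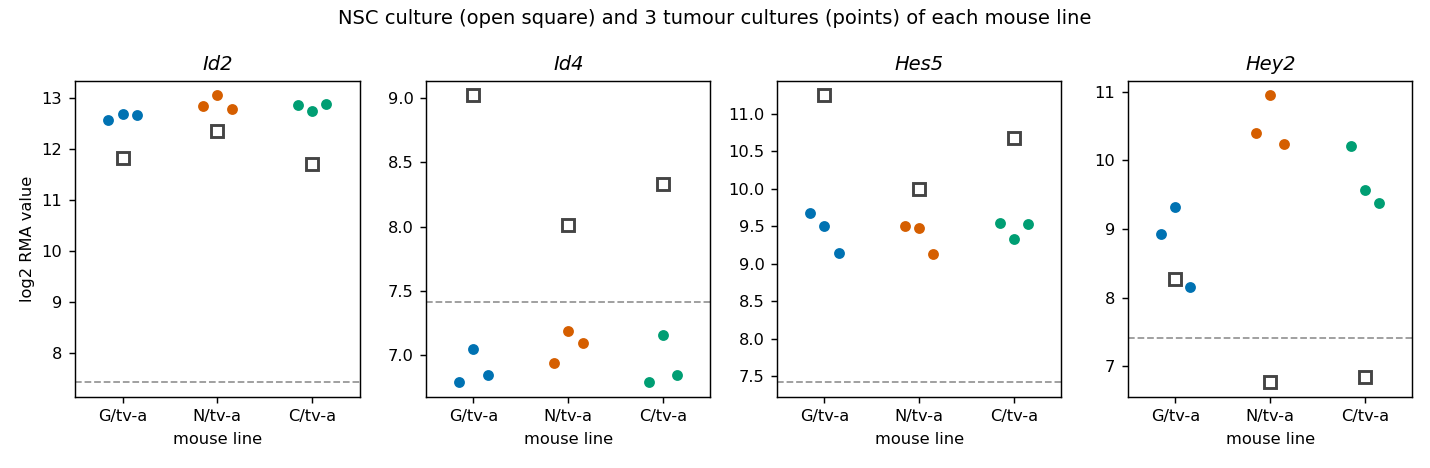
Log2 RMA value (vertical axis) of Id2, Id4, Hes5 and Hey2 in the NSC culture (open square) and the 3 tumour cultures (points) of each mouse line (horizontal axis), with the dashed line at 7.42. Id4 and Hes5 are highest in the G/tv-a and lowest in the N/tv-a NSC culture, all tumour values of Id4 lie below the dashed line, where levels cannot be told from absence, and for Hey2 the G/tv-a NSC culture at 8.27 lies among its tumour cultures.

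Genes that act upstream of the repressors, or with them, were counted from prepared lists in the tumour against NSC comparison, in which 36.7% of all probe sets were called. Of the 4 Notch receptors, 0 were higher, 3 lower and 1 did not pass, Notch2 (-1.74 ± 0.18) and Notch3 (-0.93 ± 0.17, a lower bound in size) having the largest falls. Of the 7 Notch ligands and ligand-like genes, 4 were higher, 1 lower and 2 did not pass. The ligand genes Jag1 (1.45 ± 0.12) and Dll3 (1.15 ± 0.19) rose, Dll3 encoding a ligand-like protein that acts against Notch in the same cell, and Dll1 fell (-0.59 ± 0.11). Of 21 probe sets for 17 Notch processing and nuclear genes, 6 were higher, 10 lower and 5 did not pass. The largest falls were those of Lfng (-4.78 ± 0.10, a lower bound in size) and Mfng (-1.66 ± 0.13), which encode fringe enzymes that put sugars on Notch receptors. The other fringe gene, Rfng, did not pass (0.13, limma adjusted p = 0.304). Psen2, a gamma-secretase subunit gene, rose by at least 0.71 ± 0.14 and Dtx1 by 0.66 ± 0.07.

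Of the 8 BMP ligand genes, 4 were higher, 2 lower and 2 did not pass. Among the 4, Bmp2 read 6.12 in tumour and 5.37 in NSC cultures, so its presence on either side was not shown. Bmp7 rose by 3.06 ± 0.13, from 9.16 in NSC to 12.22 in tumour cultures, and Bmp4 by at least 1.87 ± 0.21, while Bmp1, which encodes a protease and not a true BMP, fell (-0.87 ± 0.21), as did Bmp6 (-0.39 ± 0.09, a lower bound in size). Of the 8 receptor genes, 2 were higher, 3 lower and 3 did not pass. The type I receptor gene Bmpr1b fell (-3.23 ± 0.09, a lower bound in size), from 9.05 in NSC to 5.82 in tumour cultures, and so did Bmpr2 (-0.49 ± 0.08). Acvr2a rose (0.27 ± 0.09). Acvrl1 was called higher (0.20 ± 0.05) but read 7.46 in tumour and 7.27 in NSC cultures, near or below the 7.42 of absent transcripts, so its presence was not shown. Of the 6 SMAD genes, 2 were higher, 1 lower and 3 did not pass, with the inhibitory Smad7 up by 0.49 ± 0.11, Smad9 up by 0.34 ± 0.10 and the BMP transducer Smad5 down, at -0.59 ± 0.07. Of 10 probe sets for 9 antagonists and degraders, 1 was higher, 3 lower and 6 did not pass. Among the 3, Fst read 6.93 in tumour and 7.29 in NSC cultures, both below 7.42. Chrdl1 (-1.43 ± 0.19) and the decoy receptor gene Bambi (-0.69 ± 0.08) fell, and Chrd rose by at least 0.33 ± 0.06.

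E proteins are the partners that ID proteins bind. All 3 E protein genes were lower, Tcf3 at -0.56 ± 0.06, Tcf12 at -0.34 ± 0.06 and Tcf4 at -0.23 ± 0.08. Of the 5 measured co-repressor genes, 1 was higher and 4 lower, Tle2 rising by 1.52 ± 0.09 while Tle3 (-0.95 ± 0.13) and Tle4 (-0.73 ± 0.11) fell. Of the 8 measured proneural and OLIG factor genes, 0 were higher, 1 lower and 7 did not pass. The 1 that passed, Neurod4, read 4.78 in tumour and 5.31 in NSC cultures, so its presence on either side was not shown. Olig1 and Olig2, which ID proteins can hold back, read 12.94 and 12.30 in tumour and 12.98 and 12.44 in NSC cultures. Of the 6 other HES-type repressor genes, 1 was higher, 0 lower and 5 did not pass.

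That gene was Bhlhe41, which encodes a circadian repressor and, like Hey2, was called between mGC1_GFAP and mGC2_NES. It rose by at least 1.12 ± 0.17 against NSC. Its means were 7.12 ± 0.36 in mGC1_GFAP, 8.87 ± 0.15 in mGC2_NES, 8.12 ± 0.06 in mGC3_CNP and 6.91 ± 0.44 in NSC (SD, n = 3 each). The means of mGC1_GFAP and NSC both lay below 7.42 and have no order, and mGC2_NES against mGC3_CNP did not pass (limma adjusted p = 0.0918). It was lower in mGC1_GFAP than in mGC2_NES (-1.74 ± 0.16, limma adjusted p = 0.00167) and than in mGC3_CNP (-0.996 ± 0.16, limma adjusted p = 0.0370), both lower bounds in size. Between mGC1_GFAP and mGC2_NES 5 of the 86 probe sets of all 11 lists were called, or 5.81%, near the 6.13% of all probe sets. Besides Bhlhe41 these were 4 genes. Jag1 (-0.69 ± 0.14), the ligand-like gene Dner (-0.47 ± 0.08) and the BMP antagonist gene Chrdl1 (-0.94 ± 0.22) were lower in mGC1_GFAP, and Bambi (0.51 ± 0.10) was higher, with limma adjusted p of 0.0232, 0.0156, 0.0399 and 0.0221.

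**Figure D5:**
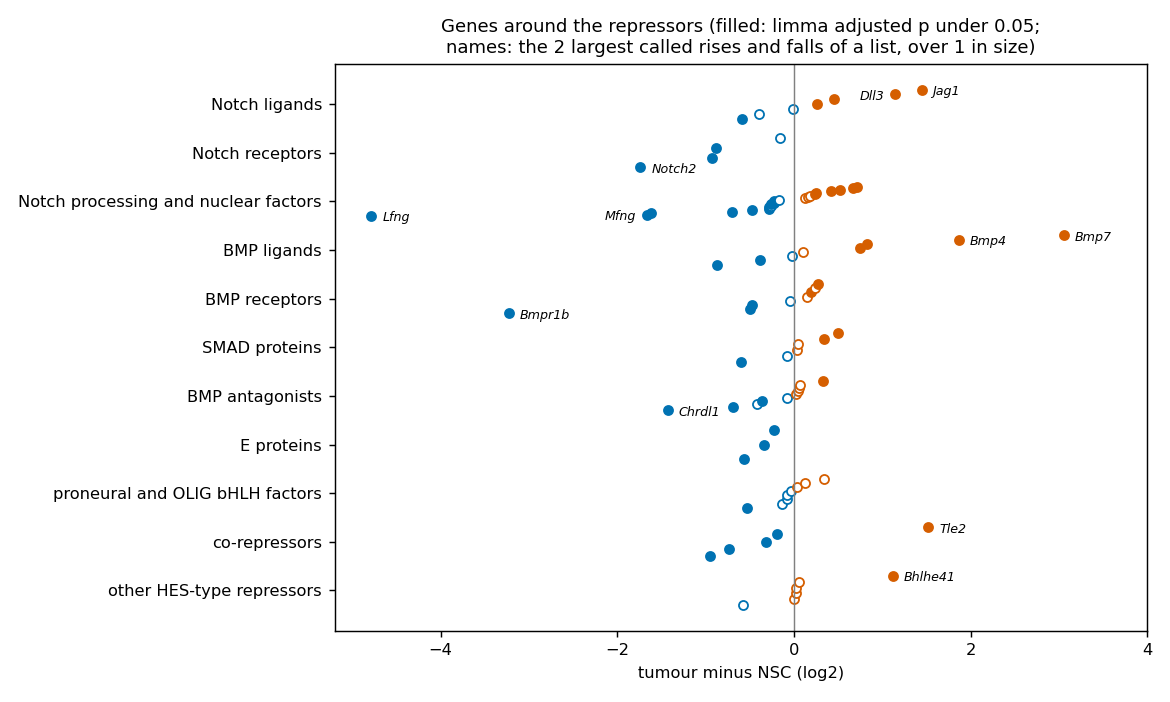
Tumour minus NSC difference on the log2 scale (horizontal axis) of each probe set in the 11 lists around the repressors (vertical axis); filled points had a limma adjusted p under 0.05, and names mark the largest called rises and falls over 1 in size. Notch receptors and E proteins have filled points left of 0 only, while Bmp7 at 3.06 and Bmpr1b at -3.23 stand furthest out on the BMP side.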

How the data were processed

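The 12 cultures gave 1 array each. The authors deposited log2 values per probe set. The submitters' processing notes name RMA and Affymetrix Expression Console. RMA gives all arrays 1 common distribution and thus hides a shift common to most genes. For the software version, annotation release and genome build: not given in the sources used here. Values were used as deposited, and array data hold no read depth, so the number of arrays limits precision. Of 28270 probe sets, the 21780 with exactly 1 symbol were tested.

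Groups came from sample titles, and NSC cultures are named by mouse line. Tests used limma 3.58.1 in R 4.3.3 (lmFit, eBayes, two-sided, Benjamini-Hochberg over 21780 probe sets) and were tested on simulated data. The 3 tumour pairs and the F test used 9 arrays, and comparisons with NSC all 12. Alternatives were array centring, a filter on low values, all probe sets, another variance prior, other arrays in the fit, blocks and leaving out each array. From the pathway lists, the text names the 2 largest called rises and falls of each against NSC and each gene called between tumour groups. Besides these it names Rfng, Tcf4, Bmp2, Fst, Olig1, Olig2 and the markers, which were chosen after their values were seen. The members and lists were chosen with earlier results of these data known. Promoter windows are RefSeq's, of GRCm38.p6.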

Additional observations from a re-analysis of the deposited data

Results flagged for a closer look

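Hey2 stood out because its difference from NSC was not alike in the tumour groups. It was 1.51 in mGC1_GFAP and 3.24 in mGC2_NES, and the test of the difference itself gave -1.73 (limma adjusted p = 0.0172), with all 3 mGC1_GFAP cultures below all 3 mGC2_NES cultures. The adjusted p ranged from 0.0111 to 0.0301 over the alternatives that kept all tumour arrays and from 0.0138 to 0.0608 when 1 tumour array was left out. None of the 10 genes had a single tumour culture far from the other 8 by Dixon's criterion. The criterion took the tumour groups together, so it can miss a culture that stands apart only within its own group.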

How the results depend on the processing

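Against NSC, 8 of 10 genes were called over all tumour cultures without each of the 12 arrays in turn, and 7 or 8 under the other alternatives, since a filter on low values left out Id4 and Heyl and tested 8. Among tumour groups the 1 call by the F test became 0 with an intensity trend and robust prior, and in 5 of 9 fits without 1 array (0 to 1), while the 1 call between mGC1_GFAP and mGC2_NES (0 to 1) was lost without mGC1_GFAP replicate 1 or mGC2_NES replicate 2. The causes were not tested. Tumour replicate numbers share only a number (correlation of same-numbered deviations 0.0022 to 0.25), and the replicate block gave 1, 0 and 0 calls for the 3 pairs and 1 for the F test, with Hey2 at -1.73, changing no call. Over all probe sets, calls between mGC1_GFAP and mGC2_NES fell from 1336 to as few as 534 without 1 array, those between mGC1_GFAP and mGC3_CNP went from 106 to between 24 and 165, those between mGC2_NES and mGC3_CNP from 100 to between 42 and 164, and those of the F test from 882 to as few as 222.

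Signs turned only for differences that did not pass. Hes5 went to 0.0020 between mGC1_GFAP and mGC3_CNP with arrays centred, and Hes6 to 0.0354 between mGC2_NES and NSC without both cultures of discordant sex-linked transcripts, an alternative chosen after seeing the data. Leaving out 1 array gave -0.11 to 0.52 (Id3), -0.0439 to 0.22 (Hes5), -0.21 to 0.0072 (Hey1) and -0.0633 to 0.0445 (Heyl) for mGC1_GFAP against mGC2_NES. It gave -0.11 to 0.0749 (Id4) and -0.14 to 0.12 (Hes5) for mGC1_GFAP against mGC3_CNP. It gave -0.0151 to 0.12 (Id2), -0.17 to 0.0197 (Hes5), -0.11 to 0.14 (Hes6) and -0.12 to 0.0480 (Hey1) for mGC2_NES against mGC3_CNP. Against NSC it gave -0.0821 to 0.0257 (Heyl) in mGC1_GFAP, and -0.21 to 0.0377 (Hes6) and -0.0598 to 0.0078 (Heyl) in mGC2_NES.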

Other observations

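Deviations of the 9 tumour cultures from their group means were compared among the 45 pairs of the 10 genes, as a description. Hes1 and Id3 deviated in opposite directions (r = -0.76, n = 9), and Id3 and Id4 in the same direction (r = 0.70, n = 9). The extreme values, 0.81 for Id3 with Heyl and -0.80 for Hes1 with Heyl, involved Heyl, which reads at the level of absent transcripts, and Id4 too was at that level in all tumour cultures. The cultures compared share group means and arrays, so these values carry no test.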
